A study of Mus musculus with 6 samples.

Results

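The genes described here are 40 mouse genes of ribosome biogenesis and RNA polymerase I, taken from a given list of names and read out of the 53379 gene rows of the count tables. The rule for membership is the names alone and uses no measured value, but the list was drawn up with earlier results of these data known. All 40 were found by symbol, on 17 chromosomes, and all 40 had enough counts to be tested. They comprise 4 RNA polymerase I subunits, 3 initiation factors, 4 abundant nucleolar proteins, 6 proteins of small nucleolar ribonucleoproteins (snoRNPs), 13 factors of the small ribosomal subunit and 10 factors of the large one.

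The libraries came from adult C57BL/6 mice, 3 labelled control and 3 labelled Klf5-KO. Controls had the genotype Lgr5-EGFP-IRES-CreERT2;Rosa-tdTomato, and the Klf5-KO animals carried Klf5fl/fl in addition. Both groups therefore carried the EGFP and tamoxifen-activated Cre allele at the stem cell gene Lgr5 and the tdTomato lineage reporter, and both received tamoxifen, 1 mg in 0.1 mL corn oil, on 5 days in a row. Crypts of the proximal small intestine were dissociated, cells with high Lgr5-EGFP were sorted, and total RNA was depleted of ribosomal RNA before stranded sequencing. Because ribosomal RNA (rRNA) was removed, the libraries report the messenger RNAs of the ribosome factory and not its product. Cre acts only in cells that express the Lgr5 allele, and the sort uses the same allele. The labels do not say how many animals gave each library, or that replicates came from separate animals. By sex-linked counts each group held male and female libraries, so the libraries of a group did not all come from the same animal. The p-values reflect only how far these libraries differ from one another, which may in part be technical.

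A ribosome starts in the nucleolus, where RNA polymerase I copies the rRNA genes with the help of the promoter factors UBF, SL1 and TIF-IA. The long transcript is folded, cut and chemically modified by snoRNPs and by the small subunit processome, and its parts are built into the 40S and 60S subunits by assembly factors that then leave. Crypt base stem cells divide often and make many ribosomes, and the transcription factor Myc, which binds the E-box sequence CACGTG with its partner Max, is a known activator of this gene group.

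Promoter sequence was available for 35 of the 40 genes, from RefSeq on GRCm38.p6, as windows of 300 bases that run from 250 bases before to 50 bases after the annotated start. The E-box CACGTG (a palindrome, so the same on both strands) was in the window of 8 of the 35 genes, or 22.9%, against 8.09% of all 27025 genes with a window and 11.1% of the 12020 tested ones. These genes were Mybbp1a, Nop2, Pes1, Rrn3, Tsr1, Utp20, Utp4 and Wdr43. The GC box CCGCCC was in 82.9% of the windows of the ribosome biogenesis genes and in 64.4% of those of tested genes, and CCACCC, the core of many CACCC boxes, in 45.7% and 41.0%, both searched on both strands. A match is a string of letters and not a measured binding site. The stretches below show the E-box, in capitals, in Pes1 and Utp20, the genes with it whose transcripts changed, and in Rrn3 and Nop2, where it lies before the start. Their places are chr11:3963968-3963991 (plus strand), chr10:88826765-88826786 (minus strand), chr16:13780475-13780498 and chr16:13780642-13780665 (both plus strand), and chr6:125131814-125131837 (plus strand).
Pes1: taggcagggCACGTGcgggaggaa
Utp20: cactaactaCACGTGaggaaaa
Rrn3, upstream site: cgccaaggtCACGTGcacacgcct
Rrn3, site nearer the start: cgctctgctCACGTGggccgcgtc
Nop2: tccctggatCACGTGtgttccggt

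The E-box began at base 3 of the annotated transcript in Pes1 and at base 38 in Utp20. In Rrn3 it began 215 and 48 bases before the start, and in Nop2 60 bases before it. Of the 8 genes with the string, Pes1 was lower in the Klf5-KO libraries, Utp20 was higher, and the other 6 were not called. Among all genes tested 25.8% were called in either direction, so these calls are near the background. Utp14a, the gene with the largest change, had no CACGTG. Shown are the 178 bases of its window before the first base of its counted exons, chrX:48256684-48256861 on the plus strand. That exon start lies upstream of the RefSeq start, which was the start used for the genes above. The stretch is shown because it holds the other motifs, CCACCC and the GC box (as GGGCGG on this strand), in capitals.
Utp14a: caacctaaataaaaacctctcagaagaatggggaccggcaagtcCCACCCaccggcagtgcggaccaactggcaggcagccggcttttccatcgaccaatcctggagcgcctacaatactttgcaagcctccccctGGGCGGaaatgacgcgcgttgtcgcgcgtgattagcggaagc

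Before the results, 3 properties of the libraries need stating. Total counts were between 61563625 and 77666540 per library, and Polr1e, the scarcest of the 40 genes in CPM (its reads scaled to library size, on the usual per-million scale), still had 934 counts in its lowest library. The targeted gene did not check the labels: Klf5, summed over all its exons, had 34951, 39455 and 33862 counts in the controls and 60238, 58956 and 63492 in the Klf5-KO libraries, a log2 fold change of 0.80 ± 0.10 (SE, edgeR adjusted p = 6.3e-04). Which exons the floxed allele loses is not given in the sources used here, and a count over the whole gene cannot show their loss, so "Klf5-KO" below means the libraries labelled so. Control replicate 3 stood apart in markers of Paneth cells, the defensin-secreting neighbours of the stem cells: the 10 markers summed to 16982 CPM there, to 1487 and 1746 CPM in the other controls, and to between 7835 and 9804 CPM in the Klf5-KO libraries. Control replicate 1 and Klf5-KO replicate 3 were male by their Xist and Y-linked counts and the other 4 libraries female.

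In the sorted cells of the Klf5-KO libraries, taken in bulk, transcripts of 6 of the 40 ribosome biogenesis genes fell and those of 2 rose. Utp14a, Ubtf, Nolc1, Noc2l, Polr1b and Pes1 fell to between 64.7% and 80.6% of the control mean, and Taf1d and Utp20 rose to 139.6% and 140.6% of it. The other 32 were not called at an adjusted p under 0.05. At an unadjusted p under 0.05 there were 12 of 40 lower and 2 higher, against 18.7% lower and 19.4% higher among all genes at that threshold. At the adjusted threshold a share of 15% lower stood beside 12.5% of all 19339 genes tested, and a share of 5% higher beside 13.3%, with 25.8% called in either direction. At the adjusted threshold the share lower is thus near the background, while at the unadjusted one it is above it. The share higher is under the background at both. Of the 40 log2 fold changes 36 were negative, against 9845 of 19339 for all genes, and their median was -0.19 against -0.009. Changes were small: 5.92% of all genes were called and at least 2-fold lower, and none of these 40 was. The 95% intervals of all 40 members lay inside a 2-fold change in either direction, while those of 30 lay short of a 1.5-fold fall. In bulk RNA, fewer cells of a type and less RNA per cell cannot be told apart.

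**Figure D1:**
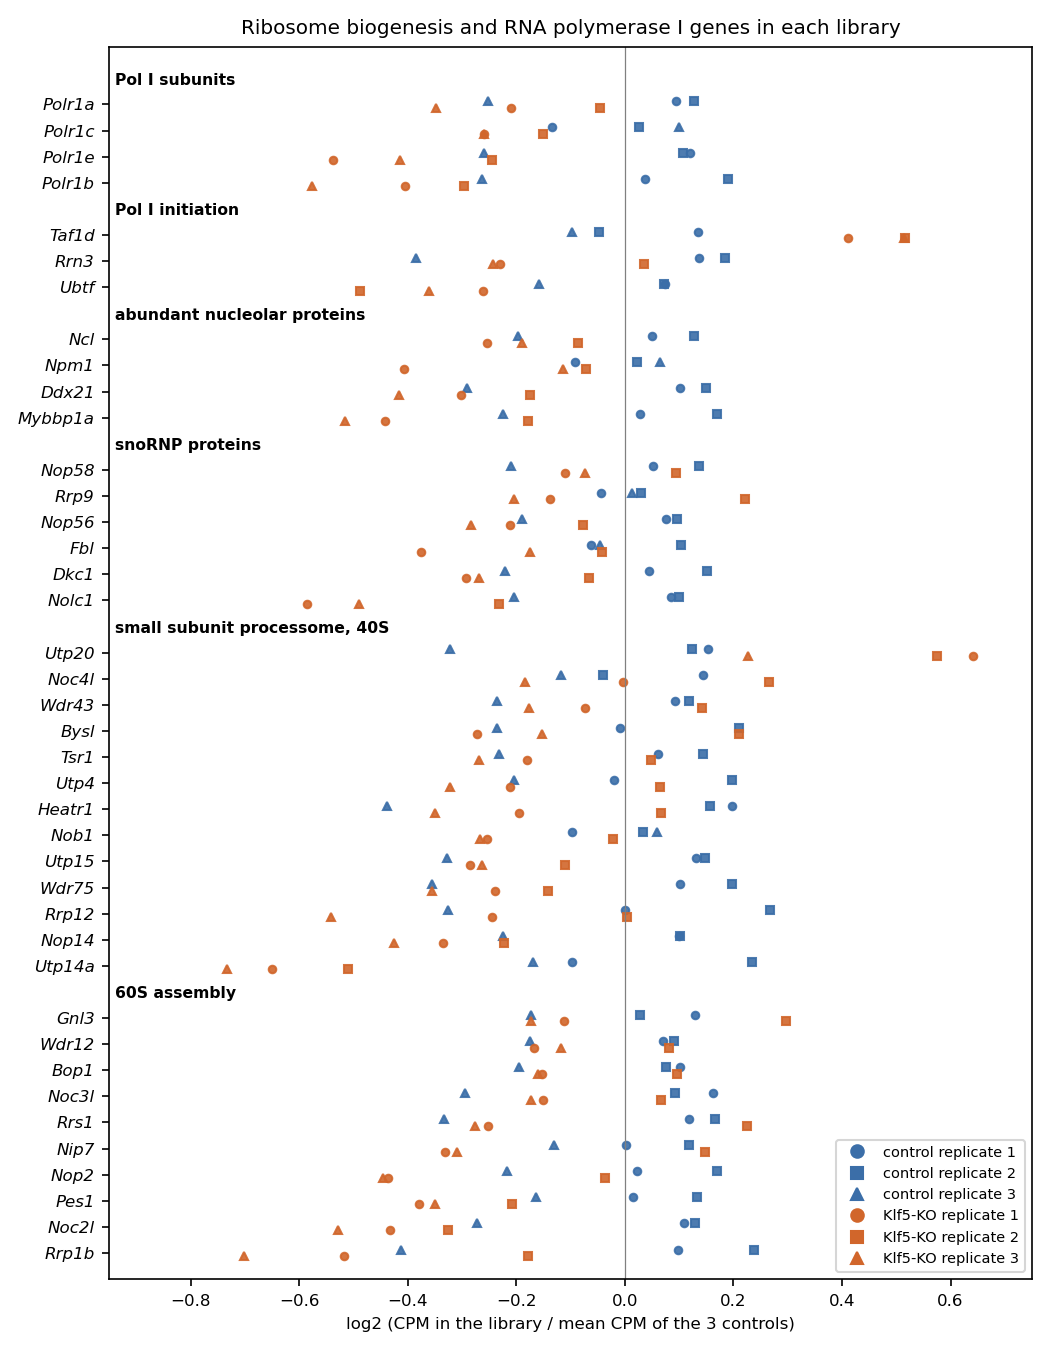
Level of each of the 40 genes in every library, as the log2 ratio of its CPM to the mean of the 3 controls (x axis), with genes in rows by role; blue marks are controls, orange marks Klf5-KO libraries, and the shape gives the replicate number. Orange marks lie left of all blue marks for 7 genes, beside 21% of all genes tested. They lie right of all blue marks for Taf1d and Utp20, beside 22.2% of all genes. Blue triangles (control replicate 3) are the leftmost blue mark in 35 rows.

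On the mm10 build the called genes lie at chrX:48256862-48282453 (Utp14a), chr11:102304560-102319742 (Ubtf), chr19:46075863-46085530 (Nolc1), chr4:156236010-156247616 (Noc2l), chr2:129100995-129126594 (Polr1b), chr11:3963975-3980004 (Pes1), chr9:15306214-15316991 (Taf1d) and chr10:88746607-88826804 (Utp20). Counts were summed over all exons of each gene, so no value here belongs to one exon or untranslated region.

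RNA polymerase I itself is a large enzyme of which 4 subunits are listed: Polr1a and Polr1b, the pair that forms the catalytic core, Polr1c, which is shared with RNA polymerase III, and Polr1e, which belongs to polymerase I alone. All 4 had negative log2 fold changes, from -0.42 to -0.20, and 1 was called. Polr1b was at 85.0, 94.5 and 69.0 CPM in control replicates 1 to 3 and at 62.5, 67.4 and 55.6 CPM in Klf5-KO replicates 1 to 3. Every Klf5-KO library lay below every control, with control 3 the nearest to them. The fall was -0.42 ± 0.12 on the log2 scale (SE; adjusted p = 0.034), from 82.8 ± 12.9 to 61.8 ± 5.95 CPM (mean ± SD, n = 3 each).

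Polr1c showed the same separation, with 46.2, 51.7 and 54.4 CPM in controls and 42.4, 45.7 and 42.4 CPM in Klf5-KO libraries, but its smaller difference of -0.22 ± 0.09 was not called (adjusted p = 0.10). A gap between the groups in this direction was found in 21% of all genes and in 7 of these 40. For Polr1e the values were 21.5, 21.3 and 16.6 CPM against 13.6, 16.7 and 14.9 CPM. Control 3 and Klf5-KO 2 met at the boundary, and the difference of -0.39 ± 0.13 narrowly missed the threshold (adjusted p = 0.054). Polr1a, the largest subunit, had overlapping groups, with 136, 139 and 107 CPM in controls and 110, 124 and 100 CPM in Klf5-KO libraries (log2 fold change -0.20, adjusted p = 0.27).

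The 3 initiation factors split. Ubtf, which encodes the HMG-box protein UBF that holds rRNA genes in their active form, was at 289, 288 and 246 CPM in controls and at 229, 196 and 213 CPM in Klf5-KO libraries. Its groups did not overlap, and it was the 1 gene of the 40 for which replicate 2 was the lowest Klf5-KO library. The log2 fold change was -0.37 ± 0.10 (adjusted p = 0.026). Rrn3, which encodes TIF-IA, the factor that brings the polymerase to the promoter, had overlapping groups (44.9, 46.4 and 31.3 CPM against 34.8, 41.9 and 34.5 CPM) and was not called (-0.14, adjusted p = 0.53).

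Taf1d, a subunit of the promoter factor SL1, went the other way. It was at 443, 390 and 377 CPM in controls and at 536, 577 and 576 CPM in Klf5-KO libraries. All 3 Klf5-KO values were above all controls, with a coefficient of variation of 4.14% in the Klf5-KO libraries, the smallest there among the 8 called genes. The rise was 0.48 ± 0.10 (adjusted p = 0.0079). This count is not a clean measure of SL1 message: the gene is also a host of small nucleolar RNAs, 8 of them within its span, only 19.8% of its 8949 counted exon bases belong to protein-coding transcripts in the annotation, and 1028 bases are shared with small RNA genes on the same strand. Which of its transcripts rose was not tested.

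Among the 4 abundant nucleolar proteins none was called, although all 4 values were negative. Ncl (nucleolin) and Npm1 (nucleophosmin) are among the most abundant proteins of the nucleolus. Ncl was at 1238, 1305 and 1042 CPM in controls and at 1002, 1125 and 1048 CPM in Klf5-KO libraries, and Npm1 at 565, 611 and 630 CPM against 454, 572 and 556 CPM. Their groups overlapped, and their log2 fold changes were -0.18 (adjusted p = 0.32) and -0.19 (adjusted p = 0.26). Mybbp1a, a nucleolar Myb-binding protein involved in rRNA transcription and processing, came nearer to the threshold with 348, 383 and 292 CPM against 251, 301 and 238 CPM. Here a single pair of libraries, control 3 and Klf5-KO 2, overlapped (-0.37 ± 0.13, adjusted p = 0.059). Ddx21, a helicase that links polymerase I to rRNA processing, had a difference of -0.29 (adjusted p = 0.12).

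The snoRNP proteins carry the guide RNAs that direct rRNA modification. Of 6, only Nolc1 was called. Nolc1 encodes Nopp140, a chaperone for box C/D and box H/ACA particles, and was at 179, 181 and 147 CPM in controls and 112, 144 and 120 CPM in Klf5-KO libraries. Klf5-KO 2 lay just under control 3, and the remaining values were well apart (-0.43 ± 0.12, adjusted p = 0.028). The box C/D core proteins were not called: the log2 fold change was -0.03 for Nop58, -0.19 for Nop56 and -0.19 for the methyltransferase Fbl. Dkc1, the pseudouridine synthase of box H/ACA particles, was at -0.21 (adjusted p = 0.21) and Rrp9, a protein of the U3 particle, at -0.03. Rrp9 was the steadiest gene of the group in controls, with 33.4, 35.1 and 34.7 CPM, and its Klf5-KO values of 31.3, 40.1 and 29.9 CPM lay on both sides of them. All 6 values were negative, and the 5 uncalled genes had overlapping groups.

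Within the small subunit group lay both the largest fall and the largest rise. Utp14a, the processome protein that activates the helicase releasing U3 from pre-rRNA, was at 56.6, 71.3 and 53.9 CPM in controls and at 38.6, 42.5 and 36.5 CPM in Klf5-KO libraries. The lowest control exceeded the highest Klf5-KO library by more than the range of the latter. Utp14a fell to 64.7% of the control mean, a log2 fold change of -0.63 ± 0.12 (adjusted p = 0.0050).

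Utp20, a very large scaffold protein of the same particle, was at 139, 137 and 100 CPM in controls and at 196, 187 and 147 CPM in Klf5-KO libraries. The groups did not overlap, but the highest control and the lowest Klf5-KO library were close. The rise was 0.49 ± 0.15 (adjusted p = 0.037). Groups separated in this direction in 22.2% of all genes and in 2 of these 40.

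The remaining 11 small subunit genes were not called, with log2 fold changes from -0.33 to 0.04. Nop14, a processome protein, was the nearest to the threshold: it was at 74.7, 74.7 and 59.7 CPM against 55.3, 59.7 and 51.9 CPM, with control 3 and Klf5-KO 2 at nearly the same value (-0.33 ± 0.11, adjusted p = 0.053). Wdr43, Utp4, Utp15 and Heatr1, proteins that join the pre-rRNA while it is still being transcribed, had log2 fold changes of -0.03, -0.15, -0.22 and -0.15. Heatr1 shows the library pattern of this group: it was at 116, 113 and 74.8 CPM in controls and at 88.6, 106 and 79.6 CPM in Klf5-KO libraries. Its lowest value of all was in control 3 and its highest Klf5-KO value in replicate 2. Wdr75, of the same early group, was at -0.24 and Rrp12, which acts in export of the subunits, at -0.24. Of the later-acting genes, Bysl, needed for 18S rRNA processing, was at -0.06, the GTPase-like Tsr1 at -0.13 and Nob1, the nuclease that makes the mature end of 18S rRNA, at -0.18. Noc4l was at 0.04, 1 of 4 positive values among the 40.

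Of the 10 genes of 60S assembly, 2 fell. Noc2l, a nucleolar protein that escorts early pre-60S particles, was at 238, 241 and 182 CPM in controls and at 163, 176 and 153 CPM in Klf5-KO libraries (-0.43 ± 0.12, adjusted p = 0.028). Pes1, the scaffold of the PeBoW complex that is needed to cut the spacer before 28S rRNA, was at 95.4, 104 and 84.3 CPM and at 72.6, 81.7 and 74.0 CPM (-0.31 ± 0.10, adjusted p = 0.044). In both, control 3 was the lowest control and Klf5-KO 2 the highest Klf5-KO library, and the groups stayed apart. The partners of Pes1 in PeBoW were not called: Bop1 was at -0.07 (95% interval -0.32 to 0.18) and Wdr12 at -0.06 (-0.30 to 0.17). Bop1 was at 77.0, 75.5 and 62.6 CPM in controls and at 64.5, 76.7 and 64.2 CPM in Klf5-KO libraries, and Wdr12 at 42.5, 43.1 and 35.8 CPM and at 36.0, 42.8 and 37.3 CPM. In both, control 3 was the lowest library of all 6. The differences between Pes1 and its partners were not tested.

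Rrp1b, a nucleolar protein of late rRNA processing, had the most negative value of any uncalled gene, -0.45 ± 0.18, with an adjusted p of 0.093. Its spread was wide, 72.4, 79.8 and 50.9 CPM in controls and 47.3, 59.8 and 41.6 CPM in Klf5-KO libraries. Nop2, the methyltransferase of 28S rRNA, was at 105, 117 and 89.3 CPM against 76.7, 101 and 76.2 CPM, again with control 3 and Klf5-KO 2 crossing (-0.29, adjusted p = 0.15). Noc3l, Rrs1 and Nip7, further factors of pre-60S particles, were at -0.08, -0.08 and -0.15, and in Rrs1 and Nip7 Klf5-KO 2 held the highest value of all 6 libraries. Gnl3 (nucleostemin), a nucleolar GTPase known from stem cells, was at 0.02, with 109, 101 and 88.3 CPM in controls and 92.1, 122 and 88.3 CPM in Klf5-KO libraries; its 95% interval ran from -0.28 to 0.32.

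**Figure D2:**
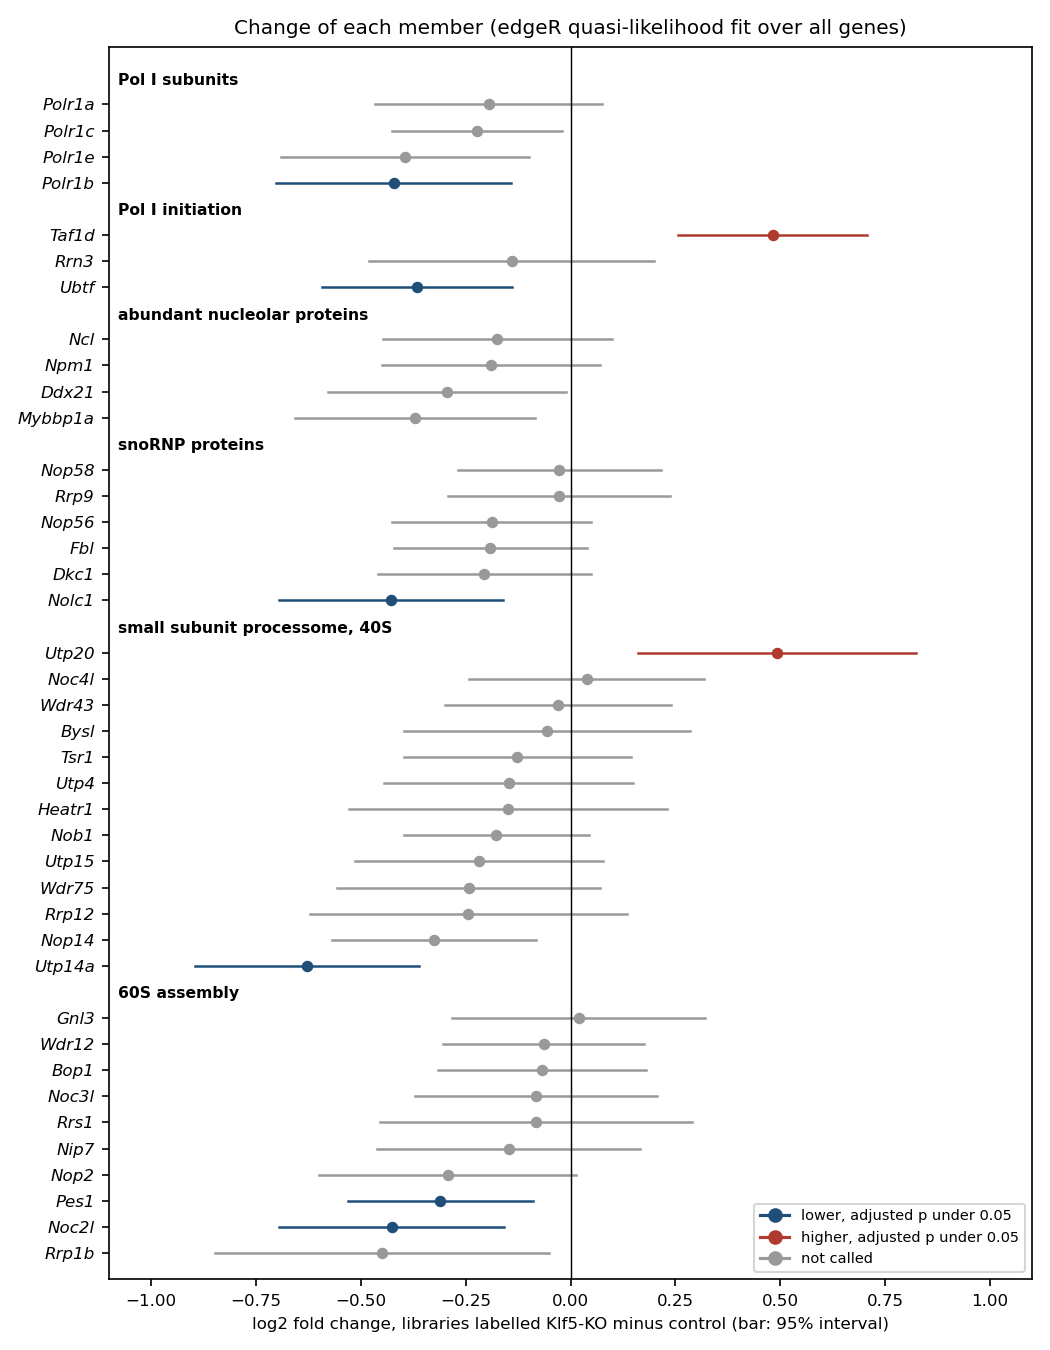
Log2 fold change of each gene, Klf5-KO minus control, with its 95% interval (x axis), by role; dark blue marks genes called lower, red marks genes called higher and grey marks genes not called. Points left of 0 number 36, and those not touching 0 include the 8 called genes.

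Calls near the threshold depended on single libraries. Polr1b, Pes1 and Utp20 were also not called with sex as a covariate. Only Utp14a and Taf1d stayed called under all 17 alternatives to the fit and with each library left out, their adjusted p at most 0.044 and 0.046. With 1 library left out at a time, Polr1b and Nolc1 were not called without control 1, control 2, Klf5-KO 1 or Klf5-KO 3 (adjusted p up to 0.13 and 0.11). Ubtf was not called without control 1, control 2, Klf5-KO 2 or Klf5-KO 3 (up to 0.11), and Utp20 without control 2, control 3, Klf5-KO 1 or Klf5-KO 2 (up to 0.13). Noc2l and Pes1 were called only when control 3 was the library left out (up to 0.11 and 0.14 otherwise). No sign changed in these 8 genes, and their log2 fold changes with a library left out stayed between -0.71 and -0.24 for the 6 that fell and between 0.35 and 0.61 for the 2 that rose.

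Most of the 40 genes shared an order of the libraries within each group. Control replicate 3 was the lowest control for 35 of them, against 7267 of 19339 genes in all, and Klf5-KO replicate 2 was the highest Klf5-KO library for 38, against 6776. The median log2 ratio of control 3 to the mean of the other controls was -0.32 for these genes and 0.003 for all genes. For Klf5-KO 2 against the other Klf5-KO libraries it was 0.23 and -0.009. Summed over the 40 genes the level was 6151, 6373 and 5238 CPM in controls and 5123, 5830 and 5145 CPM in Klf5-KO libraries. Control 3 thus lay among the Klf5-KO libraries and below Klf5-KO 2, and the groups overlapped in the sum.

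Leaving out control 3 changed the count of calls the most. Control 3 was the lowest control for 35 of the 40 genes, so leaving it out raises their control mean. The calls gained follow from that order and are no separate result. Without control 3, 16 of the 40 genes were lower and 1 was higher, against 13.4% and 13.8% of all genes tested in that fit. The 16 included the 6 called with all libraries, and the 10 gained were Polr1a, Polr1e, Ddx21, Mybbp1a, Dkc1, Nop56, Nop14, Utp15, Wdr75 and Rrp1b, with log2 fold changes from -0.62 for Rrp1b to -0.28 for Nop56. The median over the 40 became -0.27. Without control 1 or without control 2 a single gene, Utp14a, was lower, against 10% and 8.45% of all genes in those fits, with medians of -0.15 and -0.12. Without Klf5-KO 1, 2 or 3 the lower calls numbered 2, 5 and 1, against 7.32%, 8.01% and 7.66% of all genes. With the 4 female libraries only, 1 was lower and 2 were higher, against 5.95% and 7.02% of all genes. What part the cell mixture of control 3 has in its low values was not tested.

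**Figure D3:**
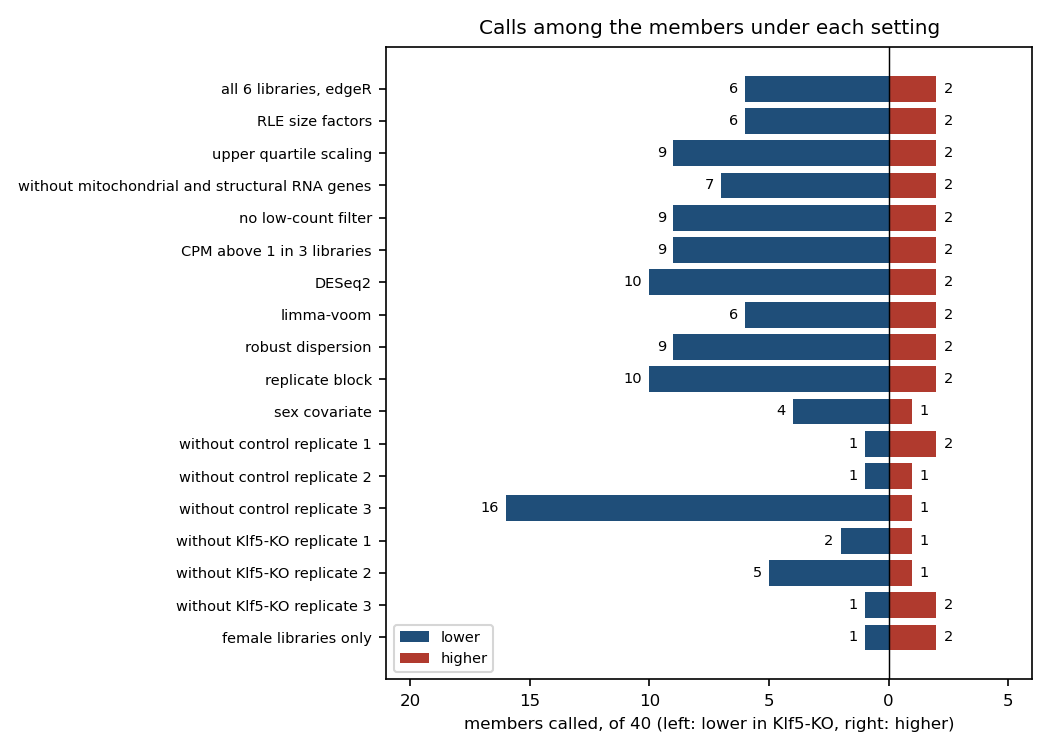
Number of the 40 genes called lower (blue bars, left of 0) or higher (red bars, right of 0) in the Klf5-KO libraries under each setting, rows naming the setting; the x axis counts genes. The bar for the fit without control replicate 3 reaches 16 lower genes, while those without control replicate 1, control replicate 2 or Klf5-KO replicate 3 reach 1.

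Cell type markers and genes of DNA replication and mitosis were set beside these genes. Each count of calls below stands beside 12.5% lower and 13.3% higher among all genes tested. Summed stem cell markers separated the groups, with 10935, 12258 and 8953 CPM in controls and 5737, 4637 and 6068 CPM in Klf5-KO libraries, and 8 of the 12 were lower, Lgr5 among them. DNA replication genes summed to 2198, 2152 and 1769 CPM and to 1838, 1708 and 1822 CPM, with 6 of 20 lower and 1 higher. Mitosis genes summed to 3685, 3198 and 2384 CPM and to 2727, 2603 and 2741 CPM, with 1 of 18 lower, 1 higher and overlapping groups. As with the ribosome biogenesis genes, control 3 was the low control in both lists. Of the 10 Paneth markers none was called, all were detected, and their summed range in controls enclosed that in Klf5-KO libraries. Goblet markers were lower for 4 of 9 (2419 to 2686 CPM against 1190 to 1537 CPM), enteroendocrine markers for 9 of 11 (156 to 314 CPM against 87.9 to 101 CPM), while 4 of 10 enterocyte markers (960 to 1275 CPM against 1558 to 2605 CPM) and 4 of 8 tested tuft markers (91.7 to 114 CPM against 133 to 241 CPM) were higher. Immune markers summed to at most 8.18 CPM, stromal and endothelial markers to at most 3.29 CPM, and erythrocyte markers to at most 1.27 CPM in any library. The part of these shifts in cell mixture in the values of the ribosome biogenesis genes was not tested.

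**Figure D4:**
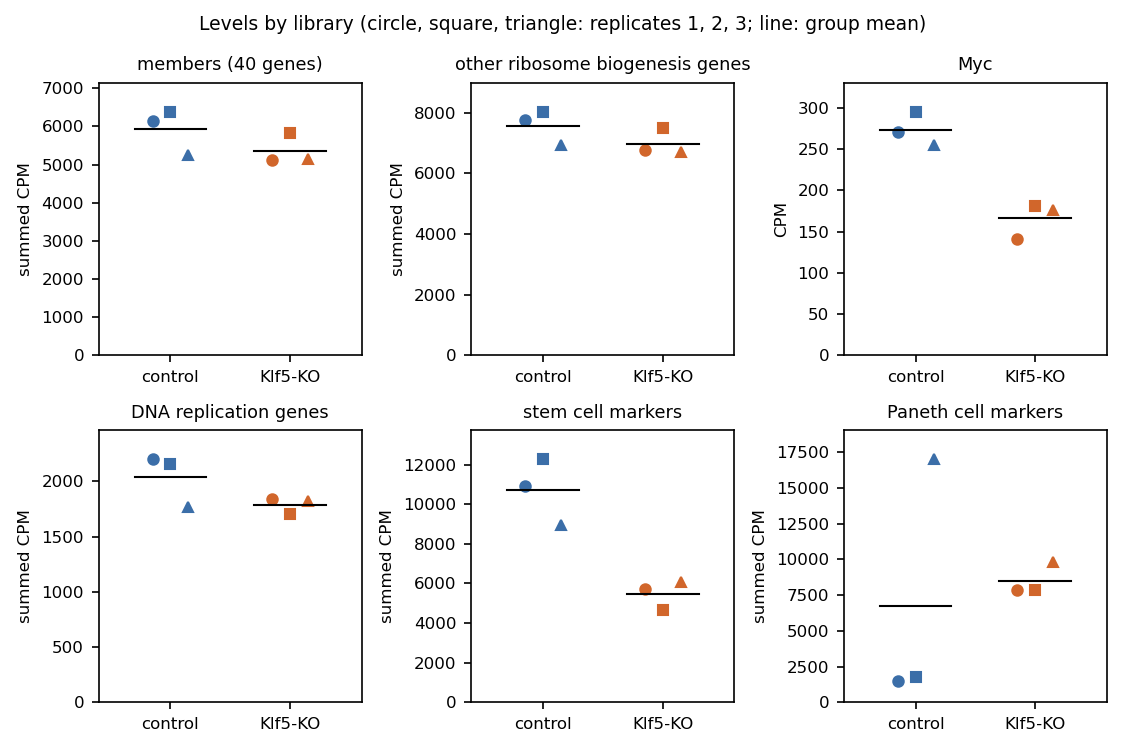
Summed CPM per library (y axis, starting at 0) of the 40 genes, of other ribosome biogenesis genes, of DNA replication genes, of stem cell and of Paneth cell markers, and CPM of Myc; marks are libraries, with shapes for replicates 1 to 3, and lines are group means. The Klf5-KO libraries lie below all controls for Myc and the stem cell markers and overlap with control replicate 3 in the sum of the 40 genes.

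Myc itself was lower in every Klf5-KO library: it was at 271, 295 and 255 CPM in controls and at 141, 182 and 177 CPM in Klf5-KO libraries. The groups did not overlap, and control 3 was again the lowest control. The log2 fold change was -0.72 ± 0.11 (adjusted p = 0.0022). Of the 12 genes of the Myc and Max network 6 were lower and none higher, beside 12.5% and 13.3% of all genes tested. The family members Mycl and Mycn fell by 1.56 and 1.97 on the log2 scale, Mycn from a low level of 15.6 ± 6.40 CPM (SD, n = 3), and Mlxip, Mlx and Mxi1, which encode further partners in the network, were lower by 0.78, 0.37 and 0.33. Max, the obligate partner of Myc, was at 0.09 (adjusted p = 0.60). Among the ribosome biogenesis genes with an E-box in the window, the log2 fold changes ran from -0.37 for Mybbp1a to 0.49 for Utp20.

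A wider set of 152 other ribosome biogenesis genes, of which 150 were tested, gave the surroundings. Of these 16 (10.7%) were lower and 2 (1.33%) higher, beside 12.5% and 13.3% of all genes, with 109 negative values and a median of -0.10. Among other RNA polymerase I genes 3 of 14 were lower, the SL1 subunit Taf1c (-0.51), the shared polymerase subunit Polr2h (-0.41) and the polymerase I subunit Polr1g (-0.45). Taf1b, another SL1 subunit, was higher: it rose from 7.59 ± 0.49 to 11.9 ± 1.47 CPM (0.65 ± 0.13, adjusted p = 0.0065). The other SL1 subunits in the list were not called, Taf1a at -0.14 (adjusted p = 0.40) and Tbp at -0.007 (adjusted p = 0.97). Other small subunit genes were lower for 5 of 48, led by Rcl1 (-0.52, adjusted p = 0.0029), which encodes a processome protein. Other 60S genes were lower for 5 of 57, led by Nop53 (-0.60, adjusted p = 0.0024), which recruits the exosome to pre-60S particles, and by the methyltransferase Ftsj3 (-0.50). The snoRNP list had 2 of 15 lower, the assembly factors Rpap3 and Ruvbl2, and the exosome list 1 of 16 lower (Exosc10) and 1 higher (Exosc8). Without control 3 the lower genes in this wider set numbered 41 and without Klf5-KO 1 they numbered 2. Of all genes tested in those fits 13.4% and 7.32% were lower.

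**Figure D5:**
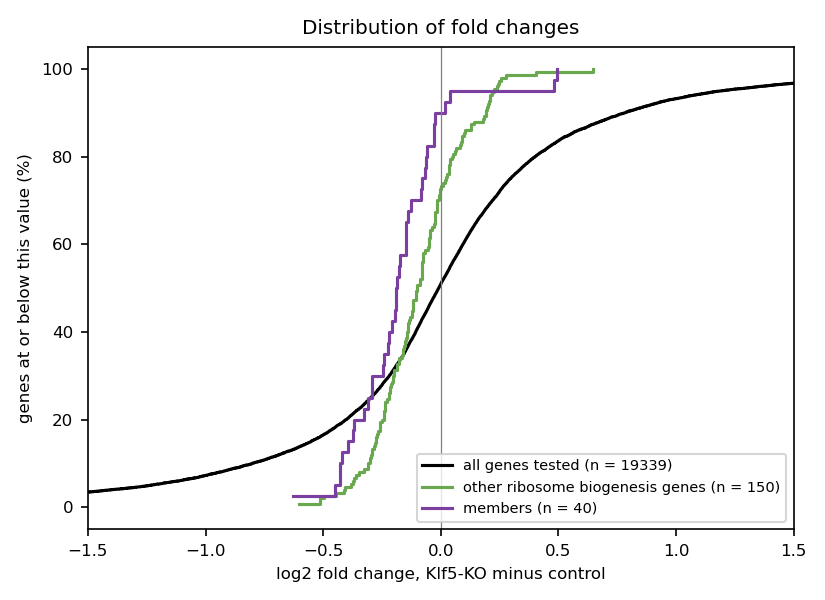
Cumulative share of genes (y axis, percent) at or below each log2 fold change, Klf5-KO minus control (x axis), for the 40 genes (purple), 150 other ribosome biogenesis genes (green) and all 19339 genes tested (black). The purple curve crosses 50% at -0.19, the green at -0.10 and the black near 0, and the purple and green curves are much steeper than the black one.

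Set by level, the 40 genes were strongly expressed in the sorted cells. Per kilobase of counted exon, Npm1 had 226 CPM and Ncl 117 CPM in controls, ranks 162 and 295 among the 14117 protein-coding genes tested. Noc2l and Nop56 followed with 76.9 and 75.7 CPM per kilobase. The lowest were Polr1e with 5.08 and Wdr12 with 3.39 CPM per kilobase. Wdr12 alone was under the protein-coding median of 4.92, and the median of the 40 was 16.3 CPM per kilobase. Exons of non-coding transcripts enter the counted length of some genes: only 28.4% of the counted bases of Fbl and 32.4% of those of Gnl3 belong to protein-coding transcripts. The 40 genes together took 0.593% of counted reads in controls and 0.534% in Klf5-KO libraries.

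Several of these genes are also sources of small nucleolar RNAs, which are cut from their introns. Within the span of 8 of the 40 genes, on the same strand, lay 29 annotated snoRNA genes, of which 10 had counts enough for a test. Of these, 7 were higher and none lower, beside 13.3% and 12.5% of all genes tested. The median log2 fold change of the 10 was 1.16, and their control means ran from 0.15 to 0.82 CPM. Snord82 within Ncl, Snord11 within Nop58 and Gm22771 within Tsr1 passed the count filter only with the Klf5-KO libraries. That favours positive values in the median and among the 10 genes tested. None of these was called. Snord82 had 17, 5 and 11 counts in controls and 20, 30 and 22 in Klf5-KO libraries. For Snord11 the counts were 27, 10 and 41 against 56, 66 and 51, and for Gm22771 10, 9 and 13 against 15, 16 and 12. SnoRNA genes outside these hosts were not compared. In Wdr43, whose own transcript was at -0.03, Snord53 had 27, 36 and 33 counts in controls and 72, 97 and 67 in Klf5-KO libraries (1.35, adjusted p = 0.0092). Snord91a within Tsr1 had 12, 16 and 9 counts against 36, 44 and 49 (1.85, adjusted p = 0.0031), and Snord110 within Nop56 had 60, 49 and 62 counts against 114, 135 and 111 (1.11, adjusted p = 0.012). All 3 were separated between the groups while their host transcripts were not called. Counts of this size come from libraries not made for small RNA, and whether the reads came from mature snoRNA or from host introns was not tested.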

How the data were processed

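RNA-seq of 6 libraries of sorted mouse intestinal cells was analysed from the deposited gene counts, whole numbers of reads per gene. Per the submitters' processing notes, the authors used STAR 2.5.2a, featureCounts 1.4.3-p1 and DESeq2 1.18.1 with the mm10 build; per the file headers, features were GENCODE vM16 exons. The files pair no symbols with IDs; GENCODE vM21, on the same build, named 53274 of 53379 IDs. How reads over several genes were counted is not given in the sources used here; 18 snoRNA genes overlapping exons of their hosts were at 0 in all libraries.

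Libraries were grouped by title. Genes passing filterByExpr were tested with edgeR 4.0.16 (R 4.3.3; TMM scaling, quasi-likelihood test, group as the only term), with Benjamini-Hochberg adjustment over all 19339 genes and a threshold of 0.05. CPM values are TMM-scaled. The SE is the log2 fold change over the square root of F, and intervals are at 95%. The script was tested on simulated counts. Total counts of 61563625 to 77666540 make counting error of the 40 genes small beside the biological coefficient of variation of 17.0%. For snoRNA genes such as Snord91a, with 12, 16 and 9 counts in controls, counting error is not small. The rRNA-like genes Gm26917 and Gm42418 took 13.5% to 18.3% of counts. Every pair of libraries differed by more than counting noise (lowest chi-square per degree of freedom 40.3). Same-numbered libraries did not deviate together (r = -0.009, 0.006 and -0.041), so the numbers were not taken as pairs.

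The members and all gene lists were chosen with earlier results of these data known, so no test was made over a list. All 40 members could be named; from other lists up to 5 called genes of smallest adjusted p, and any of the Myc network. The choice to show E-boxes near the start was made after seeing the sequences, and snoRNA genes were named after their values were seen. Riok2 could not be matched, and Wdr74 and Exosc6 were not tested. Alternatives were RLE and upper-quartile scaling, no structural RNA genes, other filters, DESeq2 1.42.0, limma-voom (limma 3.58.1), robust dispersion, a replicate block, sex as a covariate, each library left out and an adjusted p of 0.01; the female libraries alone were added after seeing the data.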

Additional observations from a re-analysis of the deposited data

How the results depend on the processing

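No log2 fold change of the 40 genes that was called reversed its sign under any of the alternatives run. The count of lower genes, 6 with all libraries, was 10 with DESeq2 (13.6% of all genes were lower there), 1 at an adjusted p under 0.01 (5.78%) and 1 in female libraries only (5.95%), against 12.5% in the fit reported. With sex as a covariate it was 4 (10.7% of all genes lower). With a library left out it lay between 1 and 16, the highest without control 3 (7.32% to 13.4% of all genes). The count of higher genes, 2, was 1 with sex as a covariate (11.6% of all genes higher) and 1 at an adjusted p under 0.01 (6.34%), and between 1 and 2 with a library left out. With the replicate number as a block the lower genes numbered 10 (10.8% of all genes); the numbers do not pair the libraries. For the other ribosome biogenesis genes, the 16 lower became 8 with sex as a covariate (10.7% of all genes). They became 2 in female libraries only (5.95%) and 2 at an adjusted p under 0.01 (5.78%). With a library left out they numbered between 2 and 41 (7.32% to 13.4% of all genes). The 2 higher became 1 in female libraries only (7.02%) and 1 at the stricter threshold (6.34%). With a library left out they numbered between 1 and 4 (8.01% to 13.8%). The cause of these differences was not tested. The median over the 40 genes stayed negative in all, from -0.27 to -0.12.

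With 3 libraries a group, the smallest fall called among the 40 genes was -0.31 on the log2 scale (Pes1), and smaller differences were not called with all libraries. This is not a limit of detection. Larger falls of Rrp1b (-0.45), Polr1e (-0.39), Mybbp1a (-0.37) and Nop14 (-0.33) were not called either. Left-out fits rest on 5 libraries and the female ones on 4. rRNA itself was removed before sequencing, so rRNA output is not measured.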

Other observations

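RNA polymerase III, which makes 5S rRNA and transfer RNA, had few called genes. Of its 20 subunit and factor genes 1 was lower, Gtf3c5, which encodes a subunit of the promoter factor TFIIIC (-0.32 ± 0.09, SE; edgeR adjusted p = 0.024), and none higher, with a median log2 fold change of -0.08. Among all genes tested, 12.5% were lower and 13.3% higher. At an unadjusted p under 0.05 there were 3 lower and none higher, beside 18.7% and 19.4% of all genes.

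Faulty ribosome assembly is known to stabilise p53 in many cells. Of 15 p53 target genes 3 were lower and 1 higher, beside 12.5% and 13.3% of all genes tested. Phlda3 and Eda2r were lower at levels under 3 CPM, and Ccng1 fell from 60.4 ± 3.98 to 46.4 ± 7.23 CPM (SD, n = 3; edgeR adjusted p = 0.040). Pmaip1, which encodes the cell death protein Noxa, rose from 59.4 ± 5.40 to 83.0 ± 14.0 CPM (adjusted p = 0.024).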
